A study of Mus musculus with 10 samples.

Results

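The genes described here are the Hedgehog co-receptors *Gas1*, *Boc* and *Cdon* and the Gli transcription factors *Gli1*, *Gli2* and *Gli3*, which were chosen by name. All 6 were found among the 29183 genes listed in both count tables. Hedgehog proteins are secreted signals that, as Indian hedgehog, pace the proliferation and maturation of growth plate (GP) chondrocytes. *Gas1*, *Boc* and *Cdon* encode cell surface proteins that bind the ligand together with the receptor Patched. Patched otherwise holds Smoothened in check, and active Smoothened changes how the Gli factors are processed. *Gli2* encodes mainly an activator, *Gli3* a factor often cut to a repressor, and *Gli1* an activator whose own transcription is a common readout of the pathway.

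Cells of hind limbs of C57BL/6 mice were sorted singly into 96-well plates and their transcripts counted by unique molecular identifiers (UMIs), which allow copies of a molecule made by PCR to be counted once. *Grem1-TdT* mice carry the tamoxifen-inducible *Grem1-creERT* and the *R26-LSL-TdTomato* reporter. They were given tamoxifen chow for 2 weeks from an age of 5 to 6 weeks, so that TdTomato marked cells with *Grem1* promoter activity in that window and their progeny. Articular cartilage (AC) and GP were cut out before the TdTomato+ cells were sorted, and 8 plates (1, 2, 4, 5, 6, 7, 8 and 9) hold these *Grem1*-lineage cells. *Lepr-TdT* mice of matching age carry *Lepr-cre*, which needs no inducer and marks any cell whose ancestors used *Lepr*. Their cells came from whole crushed bones, were sorted as CD45-, Ter119-, CD31- and TdTomato+, and fill 2 plates (1 and 2). The sample protocol gives tamoxifen for *Grem1-TdT* mice, whereas the design text gives it for both strains. Lineage, tissue and sort thus change together and cannot be told apart. AC and GP cells were sorted apart and placed on plates at random, and cells of a few samples were combined, but which tissue and which mice each plate holds was not stated. A p-value thus measures the spread between plates, which may be technical.

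The *Grem1*-lineage cells were split by 4 other genes. A cell with more UMIs of *Clu*, *Cilp* and *1500015O10Rik* together than of *Cnmd* was called articular-like, and every other cell *Cnmd*-rich. After removal of wells with fewer than 350 detected genes, 414 articular-like cells (43 to 68 per plate), 270 *Cnmd*-rich cells (26 to 40 per plate) and 160 *Lepr*-lineage cells (74 and 86) remained. The UMIs summed per plate ranged from 51229 to 78395, from 57206 to 106289 and from 59981 to 64310 over the shared genes, respectively. The median *Cnmd*-rich cell was deeper (2218.5 UMIs) than the median articular-like cell (1217) or *Lepr*-lineage cell (505). The same 96 well barcodes recurred on all plates, which were told apart by their own index. In the test described below, 5 of the 10 articular cartilage markers listed in both tables were above the filter on low counts, and all 5 were higher in articular-like cells. Of 4 GP markers tested, *Epyc*, *Alpl* and *C1qtnf3* were lower and *Col10a1*, a marker of hypertrophic chondrocytes, was higher. Of all 1075 genes tested, 19.7% were called higher and 21.6% lower. *Creb5*, *Abi3bp*, *Cilp2* and *Angptl7*, with 16, 38, 80 and 16 UMIs in *Cnmd*-rich cells, were above the filter only through articular-like sums. *Epyc* and *C1qtnf3*, with 29 and 71 UMIs in articular-like cells, were above it only through *Cnmd*-rich sums. The direction of all these genes was thus nearly fixed, and the lists were chosen with earlier results of these data known. The calls describe the groups and do not test their names. *Lepr*-lineage plates had 31286 and 42413 CPM (UMIs scaled to a common library size) of the 9 marrow stromal markers against at most 1012 CPM in any *Grem1*-lineage sum. Some marker transcripts differed widely between plates. The 5 osteoblast markers ranged from 38.7 CPM on plate 4 to 37311 CPM on plate 7 in articular-like sums, and the 7 haematopoietic markers from 0 to 2891 CPM. *Lepr*-lineage plates 1 and 2 had 10480.5 and 784 CPM of the osteoblast markers. Of the haematopoietic markers they had 5505 and 7286 CPM.

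*Gas1* lies on the minus strand at chr13:60174405-60177365 of GRCm38. Its sequence is shown because its difference between the groups was the largest of the 6 genes, and the 250 bases before its start in RefSeq (GRCm38.p6, chr13:60177536-60177785, minus strand) are printed 5′ to 3′. Capitals mark a CCAAT box and a GC box, read on its complementary strand as CCGCCC.

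Gas1 promoter: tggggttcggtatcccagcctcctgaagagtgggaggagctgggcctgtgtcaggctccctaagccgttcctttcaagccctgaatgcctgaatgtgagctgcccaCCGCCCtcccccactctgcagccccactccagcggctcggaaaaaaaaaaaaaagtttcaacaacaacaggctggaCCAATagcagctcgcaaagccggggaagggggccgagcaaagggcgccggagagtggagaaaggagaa

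The promoters of 4 of the 6 genes (*Gas1*, *Cdon*, *Gli2* and *Gli3*) were in the RefSeq set. CCAAT was searched on both strands of the 250 bases and found in that of *Gas1* alone among the 4, and in 33.8% of all 32851 promoters. GGGCGG was found in those of *Gas1*, *Gli2* and *Gli3*, and in 32.7% of all. CCACCCA, the core of the sequence bound by Gli factors, was in none of the 4 and in 8.11% of all promoters, and TATAAA was in none of the 4 and in 12.4%. These are letter matches within 250 bases and not sites.

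The first comparison asked how the genes differ between the 2 kinds of *Grem1*-lineage cell. The co-receptors were far higher in articular-like cells, while the Gli factors differed little or, for *Gli1*, in the other direction. Levels are CPM after TMM normalisation over the shared genes, with the SD over plates. *Gas1* was at 2347 CPM on the lowest plate, 3144 at the median and 4332 on the highest in articular-like sums, against 36.5, 87.4 and 155 CPM in *Cnmd*-rich sums. The lowest articular-like plate was thus above the highest *Cnmd*-rich plate. The means were 3329 ± 778 and 89.2 ± 38.4 CPM (SD, n = 8 plates each), a log2 fold change of 5.24 (SE 0.26, adjusted p = 5.2e-12, edgeR quasi-likelihood test with Benjamini-Hochberg adjustment). Of the 1075 genes tested, 41.3% passed the threshold of 0.05, 19.7% as higher and 21.6% as lower in articular-like cells, and 7.72% were higher with no overlap between the groups. The groups were set by 4 genes of the same cells, so the test describes which genes move with these 4. *Gas1*, with 61 UMIs in *Cnmd*-rich cells, was above the filter on low counts only through articular-like sums. Its direction in this test was thus nearly fixed. When all genes with a UMI were tested, its log2 fold change was 5.08 (SE 0.26, edgeR).

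*Cdon*, a transmembrane co-receptor of the immunoglobulin superfamily (chr9:35421128-35507652, plus strand), showed the same order. It was at 180, 366 and 799 CPM on the lowest, median and highest articular-like plate and at 0, 29.5 and 77.1 CPM in *Cnmd*-rich sums. The groups did not overlap. Means were 372 ± 193 and 37.5 ± 27.1 CPM (SD, n = 8 each), a log2 fold change of 3.31 (SE 0.39, adjusted p = 7.9e-07, edgeR). With 25 UMIs in *Cnmd*-rich cells, *Cdon* too was above the filter only through articular-like sums, so its direction was nearly fixed. When all genes with a UMI were tested, its log2 fold change was 3.15 (SE 0.32, edgeR).

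*Boc*, the close relative of *Cdon* (chr16:44485049-44558897, minus strand), was below the filter on low counts and was not among the 1075 genes. Its lowest, median and highest levels were 47.6, 240 and 415 CPM in articular-like sums and 0, 18.2 and 64.4 CPM in *Cnmd*-rich sums. The groups overlapped, as the articular-like sum of plate 1 was below the *Cnmd*-rich sums of plates 8 and 9, but on each of the 8 plates the articular-like cells had the higher value. The mean difference was 2.88 on the log2(CPM + 10) scale (sign-flip permutation over the 8 plates, exact and two-sided, p = 0.0078, which is the smallest value possible). When all 12514 genes with a UMI were tested, of which 3.08% were called higher, *Boc* had a log2 fold change of 2.89 (SE 0.36, adjusted p = 3.5e-13, edgeR).

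**Figure D1:**
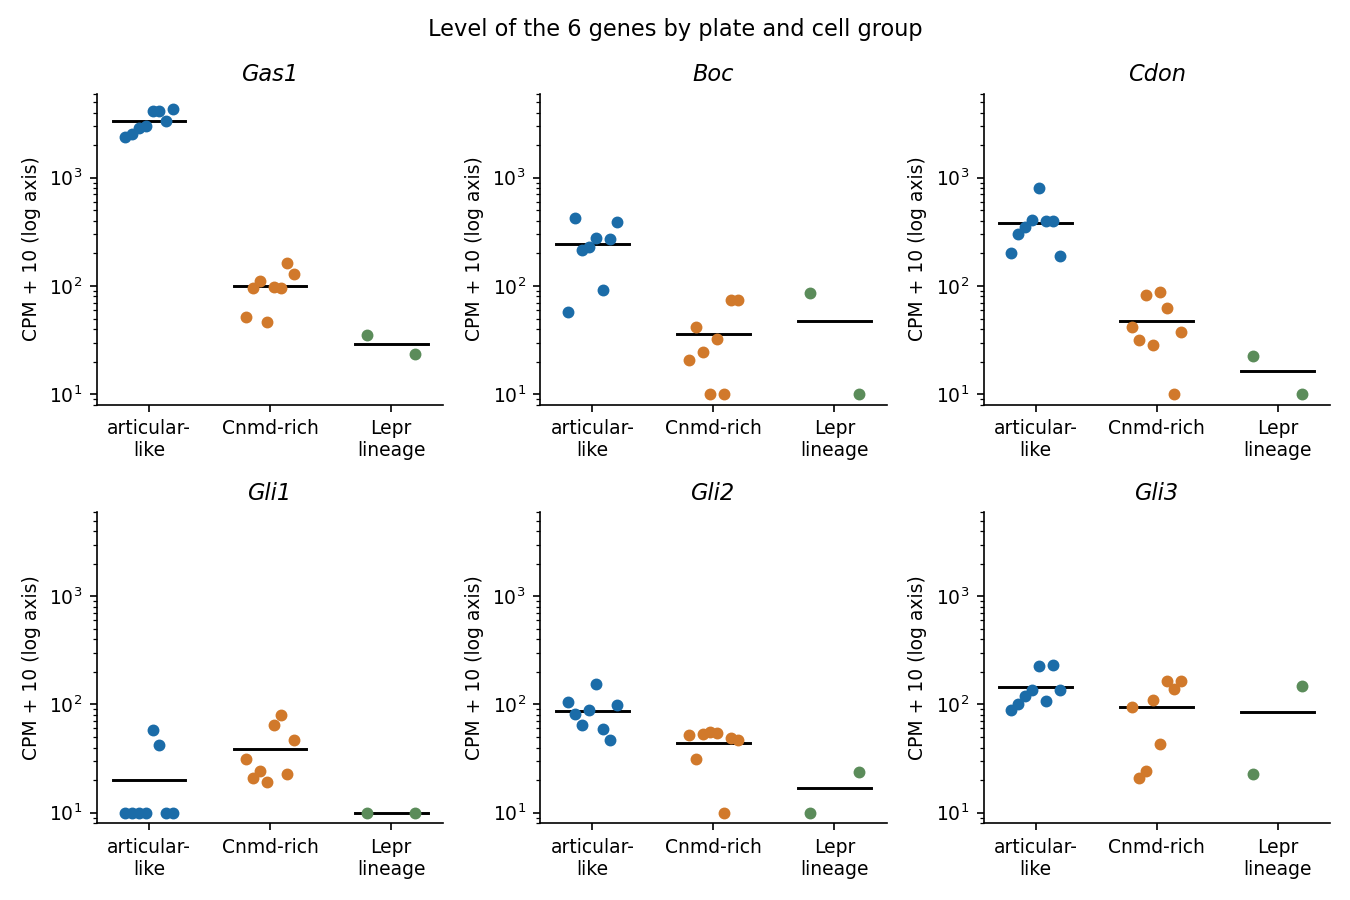
CPM + 10 on a log axis for each of the 6 genes in the sums of articular-like, *Cnmd*-rich and *Lepr*-lineage cells. Each point is a plate (8, 8 and 2) and each line the mean, and the points for *Gas1* and *Cdon* in articular-like cells lie above all others of the gene, whereas the groups of *Gli3* overlap.

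*Gli1* (chr10:127329882-127341974, minus strand) had few UMIs, 4 in articular-like cells and 19 in *Cnmd*-rich cells. It was at 0 on 6 of 8 articular-like plates, at 32.6 and 48.4 CPM on plates 7 and 6, and between 9.12 and 69.3 CPM (median 17.7) in *Cnmd*-rich sums. On each plate the *Cnmd*-rich value was the higher, but on plates 2, 4, 5 and 8 this was 1 UMI against 0. The mean difference was -1.17 on the log2(CPM + 10) scale (exact sign-flip permutation, two-sided p = 0.0078), but among all genes with a UMI, of which 2.6% were called lower, *Gli1* did not pass (log2 fold change -1.59, SE 0.78, adjusted p = 0.28, edgeR). *Gli1* shares exonic sequence with *Arhgap9* on the other strand, which had 2 and 6 UMIs in the same cells, and since the strand setting of the counting was not given, reads of the 2 genes cannot be told apart. The same limit holds for *Gas1* and *Gli3*, which share exonic sequence with *Gm48488* and *Gm6556* on the other strand. Neither of these was listed in both tables.

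*Gli2* (chr1:118834132-119053619, minus strand) was at 37.1, 75.4 and 145 CPM on the lowest, median and highest articular-like plate, against 0, 40.3 and 45.6 CPM in *Cnmd*-rich sums. The groups overlapped, and 7 of 8 plates had the higher value in articular-like cells. The difference was 1.06 on the log2(CPM + 10) scale (exact sign-flip permutation, two-sided p = 0.0156), and it did not pass when tested among all genes with a UMI (log2 fold change 0.95, SE 0.46, adjusted p = 0.27, edgeR). *Gli3* (chr13:15463235-15730026, plus strand) had 60 UMIs in each group. Its level was 79.3, 118 and 222 CPM in articular-like sums and 10.7, 92.2 and 156 CPM in *Cnmd*-rich sums, with overlap. It was higher in articular-like cells on 5 of 8 plates (difference 0.88, exact sign-flip permutation, two-sided p = 0.117). The permutation tests of the 6 genes were not adjusted for their number.

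**Figure D2:**
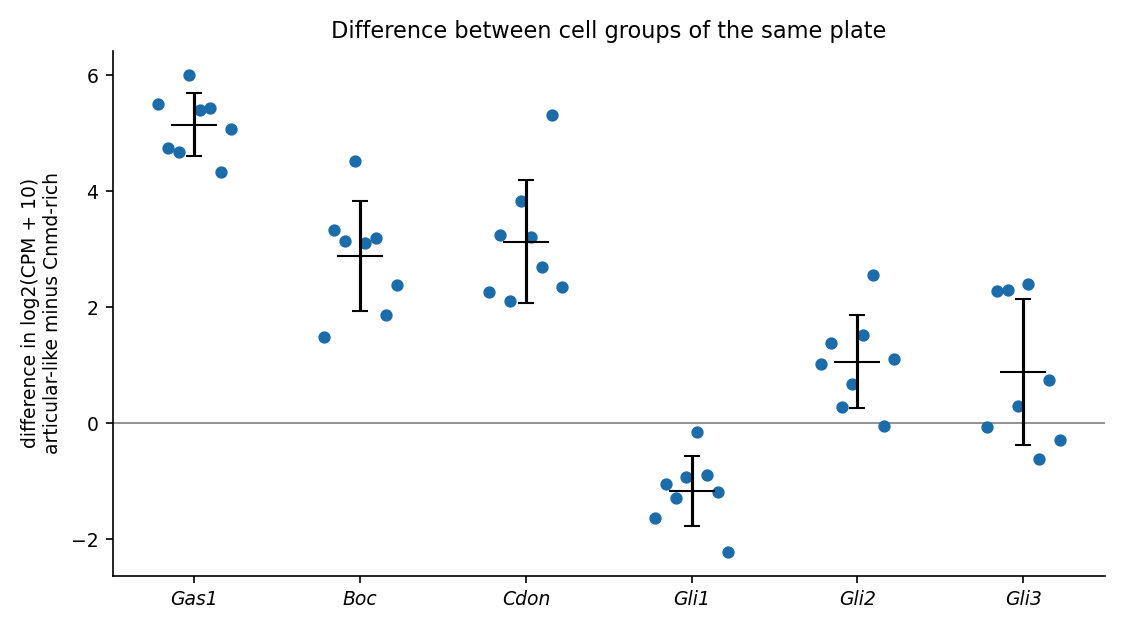
Difference in log2(CPM + 10) between the articular-like and *Cnmd*-rich cells of the same plate for each gene. Points are the 8 plates, and black marks are the mean ± SD; all points of *Gas1*, *Boc* and *Cdon* lie above 0, all points of *Gli1* below 0, and those of *Gli3* on both sides.

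The differences in *Gas1* and *Cdon* were recomputed on subsets of the plates. With each plate left out in turn, the log2 fold change of *Gas1* stayed between 5.14 and 5.40 and that of *Cdon* between 3.13 and 3.51. On plates 1, 2 and 4, whose articular-like sums had at most 3253 CPM of GP markers, *Gas1* differed by 5.12 (SE 0.30, adjusted p = 2.4e-06, edgeR) and *Cdon* by 2.81 (SE 0.45, adjusted p = 0.0013, edgeR). On plates 5 to 9, where these sums had at least 6323 CPM, the values were 5.35 (SE 0.29, adjusted p = 1.2e-09, edgeR) and 3.63 (SE 0.49, adjusted p = 2.5e-05, edgeR). The *Cnmd*-rich sums went the other way, with at least 6842 CPM of GP markers on plates 1, 2 and 4 and at most 5039 CPM on plates 5 to 9. In articular-like cells most UMIs of these markers were of *Col10a1* (2854, the next being *Alpl* with 111). Osteoblast markers were highest on plates 5 and 7 (37286 and 37311 CPM in articular-like sums) and 9 (22589 CPM in the *Cnmd*-rich sum), and haematopoietic markers on plates 1 and 5 (2891 and 1974 CPM in articular-like sums). On the other 4 plates, a choice made after seeing the data, where sums had at most 4933 and 719 CPM of these markers, *Gas1* differed by 4.89 (SE 0.29, adjusted p = 9.9e-07, edgeR) and *Cdon* by 3.34 (SE 0.57, adjusted p = 0.0014, edgeR).

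Within the *Grem1* lineage, *Gas1* rose along the ratio that defined the groups. In cells in which *Clu*, *Cilp* and *1500015O10Rik* made up at most 10% of the split UMIs, *Gas1* was at 81.2 CPM (48 cells, UMIs pooled over plates). It was at 93.7 CPM between 10 and 25%, at 107 CPM between 25 and 50%, at 615 CPM between 50 and 75% (57 cells), at 2818 CPM between 75 and 90% and at 3569 CPM above 90% (232 cells). The level was thus nearly flat among *Cnmd*-rich cells and steep on the articular-like side. *Cdon* went from 29.2 CPM between 25 and 50% to 98.4, 244 and 412 CPM in the next bins. *Boc* was at 77.8 CPM between 25 and 50% (8 UMIs in 7 of 53 cells), at 184 and 257 CPM in the following bins, and at 173 CPM above 90%. The courses of the genes were not compared by a test. Of the 19 *Cnmd*-rich cells with *Gli1*, 18 fell between 10 and 25%, where 169 cells lie. *Gli1* was at 0 in the 48 cells up to 10%, in which 3 UMIs, the number seen of *Boc*, made 24.4 CPM.

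Few cells lay close to the split. Of 684 *Grem1*-lineage cells, 41 were within 5 UMIs of it. The 34 cells from 1 to 10 UMIs above it had 24 UMIs of *Gas1* in 16 cells, and the 37 cells from 0 to 10 UMIs below it 8 UMIs in 8 cells.

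**Figure D3:**
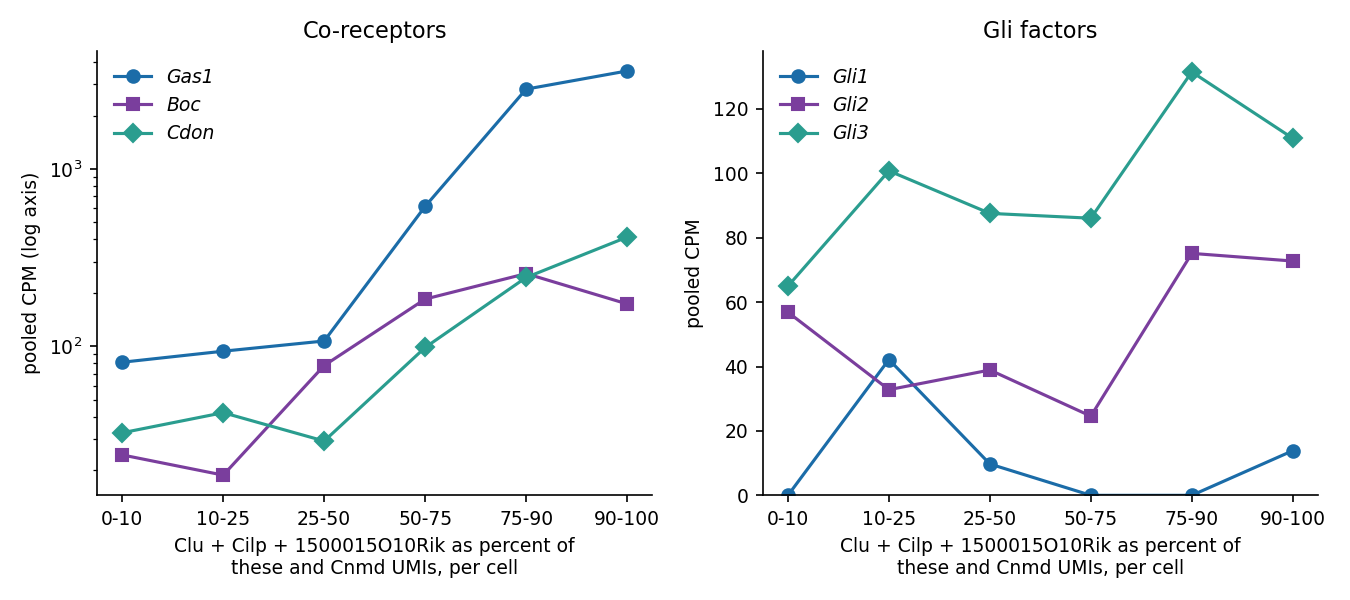
Pooled CPM in *Grem1*-lineage cells, in bins of the share of *Clu*, *Cilp* and *1500015O10Rik* among the split UMIs of a cell. The left panel shows co-receptors on a log axis, with *Gas1* going from 81.2 to 3569 CPM, and the right panel Gli factors on a linear axis, with *Gli1* highest between 10 and 25%.

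The counts per cell showed the same step. A *Gas1* UMI was found in 318 of 414 articular-like cells, in 126 of them at least 5 and in 39 at least 10, with a highest count of 27. In *Cnmd*-rich cells the highest count was 3, and 49 of the 54 cells with the transcript had a single UMI. As these cells differ in depth, each cell was thinned to 529 UMIs, which left out 83 of 160 *Lepr*-lineage cells and 1 cell of each *Grem1*-lineage group. The share of cells with a *Gas1* UMI was then 60.8% (95% Clopper-Pearson interval 55.9 to 65.5) in articular-like, 5.95% (3.44 to 9.48) in *Cnmd*-rich and 2.60% (0.316 to 9.07) in *Lepr*-lineage cells. Over plates it ranged from 51.0 to 72.1% in articular-like and from 0 to 15.2% in *Cnmd*-rich cells, which did not overlap. Without thinning, the shares were 76.8%, 20% and 1.88%, so that the *Cnmd*-rich share in particular depended on depth.

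*Cdon* was found in 15.0% (11.7 to 18.8) of thinned articular-like and 1.86% (0.606 to 4.28) of *Cnmd*-rich cells, and *Boc* in 10.7% (7.85 to 14.0) and 1.12% (0.231 to 3.22). *Gli1* was in 0 of 413 thinned articular-like cells, which allows a share of cells with a UMI of up to 0.726%, and in 3.35% (1.54 to 6.26) of *Cnmd*-rich cells. Without thinning it was in 3 of 414 (0.725%) and in 7.04%. The intervals of the groups overlapped for *Gli2*, at 3.39% (1.87 to 5.62) and 2.23% (0.823 to 4.79), and for *Gli3*, at 4.60% (2.79 to 7.09) and 5.58% (3.15 to 9.03). All intervals and limits cover counting error only. Without thinning, *Gli3* was seen in 9.42% of articular-like and 15.2% of *Cnmd*-rich cells, the reverse of the order of its CPM, and no order is read from these shares.

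**Figure D4:**
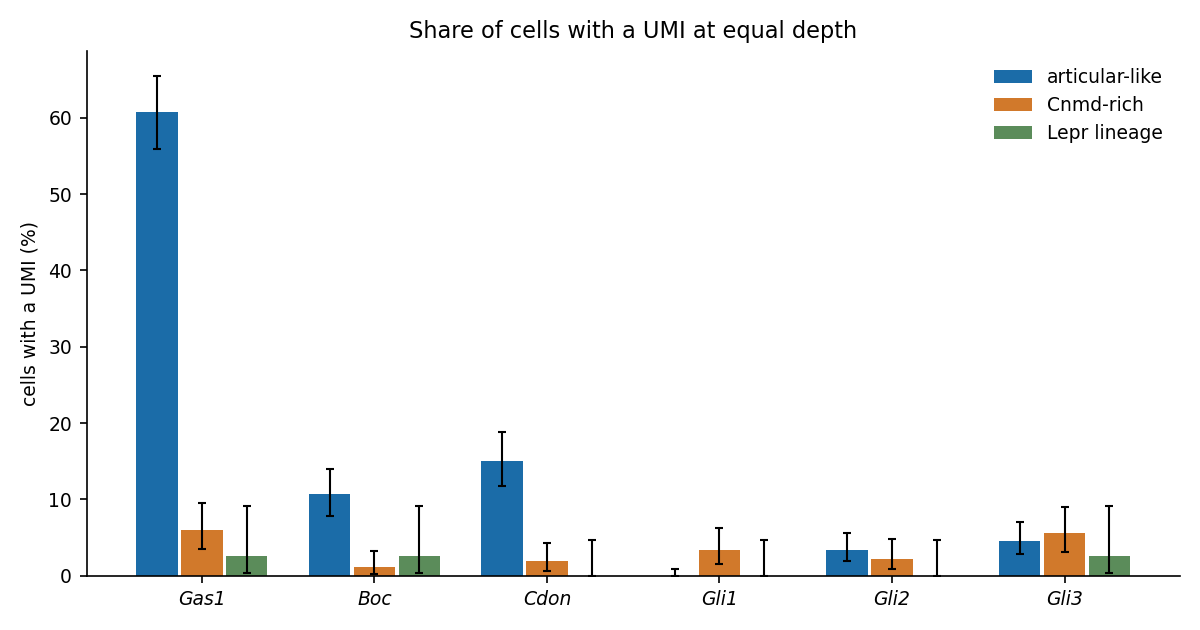
Percent of cells with at least 1 UMI of each gene after each cell was thinned to 529 UMIs, for 413 articular-like, 269 *Cnmd*-rich and 77 *Lepr*-lineage cells. Bars are shares and error bars 95% Clopper-Pearson intervals; the intervals of articular-like cells are above those of *Cnmd*-rich cells for the 3 co-receptors.

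Joint detection of the co-receptors was counted per cell. At full depth, 345 of 414 articular-like cells (83.3%) had a UMI of at least 1 co-receptor, 200 of them of 1, 126 of 2 and 19 of all 3, whereas 81 of 270 *Cnmd*-rich cells (30%) had any and none had all 3. *Gas1* was detected in 105 of the 119 articular-like cells with *Cdon* (88.2%) and in 57 of the 72 with *Boc* (79.2%), beside 76.8% of all articular-like cells. *Cdon* and *Boc* were seen together in 21 cells, so that *Boc* was in 17.6% of the cells with *Cdon* beside 17.4% of all articular-like cells. A Gli factor was found in 75 articular-like cells (18.1%), 65 of which also had a co-receptor, and in 74 *Cnmd*-rich cells (27.4%), of which 25 did. Deeper cells show more of every gene, and these counts were not tested.

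Between the lineages, the question was where the 6 genes stand in *Lepr*-lineage cells. These cells held few UMIs of any of them: 3 of *Gas1*, 6 of *Boc*, 1 of *Cdon*, 0 of *Gli1*, 1 of *Gli2* and 11 of *Gli3*, among 124291 UMIs of shared genes in 160 cells. *Gas1* was at 24.2 and 12.8 CPM on *Lepr*-lineage plates 1 and 2, and at 1018 CPM on the lowest, 1473 at the median and 2276 on the highest of the 8 *Grem1*-lineage plates. All *Grem1*-lineage plates were above both *Lepr*-lineage plates. The log2 fold change was -6.23 (SE 0.55, adjusted p = 9.6e-07, edgeR) for *Lepr* minus *Grem1* lineage, and it was -6.83 without *Lepr*-lineage plate 1 and -5.92 without plate 2. The pooled level was 55.8 times higher in the *Grem1* lineage, with a counting interval from 19.0 to 271. Of 2944 genes tested, 29% passed the threshold, 16.8% as lower in the *Lepr* lineage, and 20.7% were lower with no overlap. *Gas1* was above the filter only through the *Grem1*-lineage plates, so it could be called only as lower. When all genes with a UMI were tested, its log2 fold change was -6.43 (SE 0.60, edgeR).

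*Cdon* was at 12.1 and 0 CPM on the *Lepr*-lineage plates and between 82.6 and 317 CPM (median 168) on *Grem1*-lineage plates, with no overlap. Its log2 fold change was -4.63 (SE 0.93, adjusted p = 0.0015, edgeR), and -3.81 without *Lepr*-lineage plate 2. Without plate 1 it was -7.55, but no *Cdon* UMI remained in the *Lepr* lineage, so this is no measured fold. With 1 UMI in the *Lepr* lineage, the pooled ratio of 20.1 had a counting interval from 3.56 to 797. *Cdon* too was above the filter only through the *Grem1*-lineage plates and could be called only as lower. When all genes with a UMI were tested, its log2 fold change was -4.82 (SE 0.80, edgeR).

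*Boc* differed between the 2 *Lepr*-lineage plates, as all 6 UMIs came from plate 1 (72.5 and 0 CPM), and the *Grem1*-lineage plates were between 26.8 and 186 CPM (median 111). The groups overlapped, and the log2 fold change of -1.58 did not pass (SE 0.85, adjusted p = 0.18, edgeR). It was -0.68 without plate 2. Without plate 1 it was -6.91, but no *Boc* UMI remained in the *Lepr* lineage, so this is no measured fold. *Boc* passed when all genes with a UMI were tested, at -1.80 (SE 0.60, adjusted p = 0.038, edgeR). Of the 5 *Lepr*-lineage cells with *Boc*, 4 also had a UMI of *Prg4*, the lubricin gene of the joint surface, which was found in 27 of the 160 cells, with 99 UMIs on plate 1 and 1 on plate 2. *Prg4* was set beside *Boc* after the values were seen, and its part in the result was not tested.

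*Gli1* was at 0 on both *Lepr*-lineage plates and between 6.14 and 55.5 CPM (median 10.7) on *Grem1*-lineage plates, with no overlap (exact permutation of 2 and 8 plates, two-sided p = 0.0444, the smallest value possible). The limit of 3 counts over the 160 cells is 24.1 CPM, above the pooled 19.5 CPM of the *Grem1* lineage, so no fold is given, and in the test of all genes with a UMI *Gli1* did not pass (adjusted p = 0.17, edgeR). *Gli2* had 1 UMI (0 and 12.8 CPM on plates 1 and 2) against 26.3 to 79.2 CPM (median 54.4) on *Grem1*-lineage plates, with no overlap (exact permutation of 2 and 8 plates, two-sided p = 0.0444). Any gene without overlap has this p-value in that test. Of the 2944 genes above the filter, 20.7% were lower in the *Lepr* lineage with no overlap, so this outcome was common. The pooled ratio for *Gli2* was 6.31, with a counting interval from 1.09 to 253. In the test of all 13283 genes with a UMI, of which 4.74% were called lower, the log2 fold change of *Gli2* was -3.12 (SE 1.05, adjusted p = 0.039, edgeR).

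*Gli3* was at 12.1 and 128 CPM on the *Lepr*-lineage plates, from 1 and 10 UMIs, and between 43.0 and 178 CPM (median 106) on *Grem1*-lineage plates. The *Lepr*-lineage plates fell on either side of the lowest *Grem1*-lineage plate. The log2 fold change was -0.65 (SE 0.64, adjusted p = 0.47, edgeR), at 0.13 without plate 1 (adjusted p = 0.89, edgeR) and at -3.12 without plate 2 (adjusted p = 0.066, edgeR), so that its sign turned. The pooled ratio of *Grem1* to *Lepr* lineage was 1.15, with a counting interval from 0.619 to 2.36.

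The *Lepr* lineage was also set beside each *Grem1*-lineage cell group. Against articular-like cells 4 of the 6 genes were above the filter, and against *Cnmd*-rich cells 1. *Gas1*, *Boc* and *Cdon* were above it only through the articular-like sums, so the numbers of calls are not compared. Against articular-like cells, *Gas1* had a log2 fold change of -7.28 (SE 0.58, adjusted p = 7.2e-07, edgeR) and *Cdon* of -5.42 (SE 0.86, adjusted p = 2.2e-04, edgeR). *Boc* passed as well, at -2.52 (SE 0.87, adjusted p = 0.033, edgeR), but not without *Lepr*-lineage plate 2 (-1.64, adjusted p = 0.20, edgeR). *Gli3* was at -0.85 (SE 0.63, adjusted p = 0.30, edgeR). Of the 1584 genes tested here, 37.9% passed, 20.6% as lower in the *Lepr* lineage. Without *Lepr*-lineage plate 2, *Gli3* also passed, at -3.23 (adjusted p = 0.034, edgeR).

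Against *Cnmd*-rich cells, *Gli3* alone of the 6 genes was above the filter, with a log2 fold change of -0.24 (SE 0.87, adjusted p = 0.85, edgeR). Of 1945 genes tested, 33.1% passed. When the 12036 genes with a UMI were tested, of which 3.5% were called lower, *Gas1* was at -2.27 (SE 0.79, adjusted p = 0.0487, edgeR) and the other 5 genes did not pass. With the filter, *Gas1* had a value when a *Lepr*-lineage plate was left out, and it did not pass without plate 1 (-2.64, adjusted p = 0.10, edgeR) or plate 2 (-1.80, adjusted p = 0.21, edgeR). The articular-like, *Cnmd*-rich and *Lepr*-lineage levels of *Gas1* on the scale of the 3 groups were 3329, 89.2 and 19.4 CPM, and neither pair of neighbours overlapped. Of the 1945 genes, 19.1% were lower in the *Lepr* lineage than in *Cnmd*-rich cells with no overlap. For *Boc*, the *Cnmd*-rich level of 25.9 ± 25.9 CPM (SD, n = 8) and the *Lepr*-lineage level of 37.6 ± 53.2 CPM (SD, n = 2) overlapped.

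The rest of the pathway was examined through a list of 69 further genes, of which 32 were listed in both tables. *Ptch1*, *Smo*, *Hhip*, *Sufu*, *Kif7* and *Ihh* were not analysed in *Grem1*-lineage cells. In the comparison of articular-like with *Cnmd*-rich cells, 2 of the 32 genes passed the filter and both were higher in articular-like cells. Of all 1075 genes tested, 19.7% were called higher and 21.6% lower. They were *Ccnd2*, a cyclin of the G1 phase and a known Hedgehog target, with a log2 fold change of 3.20 (SE 0.33, adjusted p = 1.3e-07, edgeR), and *Csnk1a1*, a casein kinase that phosphorylates Gli proteins, at 0.58 (SE 0.18, adjusted p = 0.017, edgeR). *Ccnd2* had 581 UMIs in articular-like and 92 in *Cnmd*-rich cells, and *Csnk1a1* 156 and 163. *Ccnd2* was above the filter only through articular-like sums, so its direction was nearly fixed. Without TMM, the pooled ratio was 7.78 for *Ccnd2* (counting interval 6.24 to 9.80). For *Csnk1a1* it was 1.18, with an interval from 0.941 to 1.48 that includes equal levels. Without the filter, 6 of 31 genes were called higher and 2 lower, beside 3.08% and 2.6% of all 12514 genes. Among the targets below the filter, 3 named after their values were seen had fewer UMIs in articular-like than in *Cnmd*-rich cells. *Ccnd1*, another G1 cyclin, had 13 and 62 UMIs, a pooled ratio of 0.258 with a counting interval from 0.130 to 0.475. The forkhead factors *Foxf1* and *Foxf2* had 5 and 12 UMIs and 2 and 22 UMIs, respectively. *Bcl2* and *Foxl1*, targets also below the filter, had more UMIs in articular-like cells, at 113 and 25 and at 2 and 0. Without the filter, 2 of the 7 targets tested, *Gli1* and *Ccnd2* included, were called higher and 2 lower.

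Between lineages, 10 of the 32 genes were tested, and 4 were lower in the *Lepr* lineage and none higher. Of all 2944 genes tested, 29% passed and 16.8% were lower. *Ccnd2* was lower by a log2 fold change of -1.42 (SE 0.43, adjusted p = 0.020, edgeR) and *Csnk1a1* by -1.01 (SE 0.32, adjusted p = 0.028, edgeR). Without TMM, the pooled ratio of *Grem1* to *Lepr* lineage was 1.91 for *Ccnd2* (counting interval 1.37 to 2.74). For *Csnk1a1* it was 1.46, with an interval from 0.955 to 2.33 that includes equal levels. *Ccnd1* and *Arl13b*, a small GTPase of the primary cilium in which the pathway operates, were at 0 on both *Lepr*-lineage plates and called lower (adjusted p = 0.010 and 0.0041, edgeR). Both genes were above the filter only through the *Grem1*-lineage plates, so they could be called only as lower. With the limit of 3 counts over the *Lepr*-lineage cells, *Ccnd1* was at least 2.63-fold and *Arl13b* at least 2.52-fold higher in the *Grem1* lineage. *Ccnd2* and *Csnk1a1* were also lower than in articular-like cells, the only 2 of 6 tested, beside 20.6% lower of all 1584 genes. *Ccnd1* was lower than in *Cnmd*-rich cells, the only 1 of 5 tested, beside 33.1% called of all 1945 genes. Being at 0 in the *Lepr* lineage, *Ccnd1* could again be called only as lower. These comparisons share the *Lepr*-lineage plates.

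In the *Lepr*-lineage cells, whose table lists further pathway genes, the core of the pathway was sparse. Over 160 cells, *Ptch1*, which encodes the receptor Patched, had 7 UMIs, *Hhip*, a decoy receptor for the ligand, had 6, and *Smo*, which encodes Smoothened, had 5. *Kif7*, a ciliary regulator of Gli proteins, had 4 UMIs, *Sufu*, which binds and restrains them, had 1, and the ligand *Ihh* had 1. None of these could be set against the *Grem1* lineage here.

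Across the 18 sums (8 articular-like, 8 *Cnmd*-rich and 2 *Lepr*-lineage), the genes whose log2(CPM + 10) was most like that of *Gas1*, among 2591 genes with a mean of at least 50 CPM, were *Dcn* (Pearson's r 0.98), *Cilp2* (0.97), *Chst5* (0.96), *Ackr3* (0.96) and *Cst3* (0.95). For *Cdon* they were *Crim1* (0.93), *Bmp2*, *Dcn*, *Erg* and *Cilp2* (each 0.92), and for *Boc* they were *Gm37899* (0.90), *Crip2* (0.86), *Dcn* (0.83), *Gas1* (0.83) and *Cilp2* (0.82). *Dcn* and *Cilp2* were in all 3 lists. The values of *Gli2* were less like any gene, led by *Atp2b1* (0.88), *Arl4a* (0.82), *Ccdc127*, *Ciart* and *Capns1* (each 0.79), and those of *Gli3* least, led by *1500011B03Rik* (0.77), *Fam168b* (0.74), *Brd1* (0.72), *Ctdspl* (0.71) and *Clasp2* (0.70). Among the members, *Gas1* had an r of 0.90 with *Cdon*, 0.83 with *Boc*, 0.69 with *Gli2* and 0.45 with *Gli3*. *Gli1* was below the minimum level. The sums share plates, libraries and the step between cell groups, so these values are a description.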

How the data were processed

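The deposited values are UMI counts per gene and cell, as whole numbers without normalisation. The submitters' processing notes name UMI-tools, STAR, featureCounts, SAMtools and Seurat, and the genome build mm10. Versions and the strand setting were not given in the sources used here. From the authors' counts, complete rows of genes listed in both tables (29183) were used and 1 incomplete row was left out. The *Lepr*-lineage table lists 50508 genes, the rest of which have no *Grem1*-lineage value here.

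Wells were kept from 350 detected genes upwards, counted within their own table (684 of 768 and 160 of 162). No doublet caller was run, as wells held cells sorted singly. UMIs were summed per plate and group and tested with edgeR 4.0.16 in R 4.3.3 (TMM, filterByExpr, quasi-likelihood test, Benjamini-Hochberg adjustment at 0.05 over all genes tested); the SE is approximate. Single genes were also tested by exact permutation on log2(CPM + 10), computed in Python 3.11.15 with scipy 1.17.1. Depth sets the precision: 1 UMI in a *Lepr*-lineage sum is more than 10 CPM. The procedures were tested on simulated data.

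Sums of the same plate deviated together (mean correlation across genes 0.292, range 0.175 to 0.443, above 0.1 on 8 of 8 plates) against -0.0417 for different plates, so the cell groups were taken as paired by plate in an alternative with the plate as a block. Other alternatives were DESeq2 1.42.0, its size factors, no filter, no gene minimum, the minimum counted on shared genes alone, removal of the 20 most abundant genes, 2 narrower splits, groups of plates, and each plate left out.

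Members and lists were chosen with earlier results of these data known. Named were the 6 genes, pathway genes past the threshold, core pathway genes of the *Lepr*-lineage table (a result of this list is not reported here), and the 5 genes most like each member. Coordinates are from GENCODE M21 (GRCm38).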

Additional observations from a re-analysis of the deposited data

Results flagged for a closer look

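In 18 groups of 8 plates, a plate stood apart from the others by Dixon's criterion for *Cdon* in articular-like cells (plate 6, 799 CPM, the next highest plate 393 and the lowest 180 CPM) and for *Gas1* in all *Grem1*-lineage cells (plate 7, 2276 CPM, the next 1613 and the lowest 1018 CPM). The *Gas1* value was only just past the critical value (a gap of 0.527 of the range), and chance alone gives such a plate in about 5% of groups. Wells left out for too few detected genes also held *Gas1* (99 UMIs), *Cdon* (14 UMIs) and *Boc* (9 UMIs), which the comparisons did not use. Of these, 96, 13 and 8 UMIs were in the 67 wells on the articular-like side of the split, and the 2 left-out *Lepr*-lineage wells, with 362 UMIs in all, had none.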

How the results depend on the processing

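*Gas1* and *Cdon* kept direction and call in every alternative that gave them a value in the 3 comparisons in which they passed. In the main fits, both were above the filter only through the group with the higher level. *Cdon* was below the filter between *Grem1*-lineage cell groups when cells within 5 UMIs of the split were left out. Between *Grem1*-lineage cell groups, *Gas1* had log2 fold changes of 4.89 to 5.46 and *Cdon* of 2.81 to 3.63. The number of genes called moved from 444 to 710 without the filter, to 239 on plates 1, 2 and 4 alone, to 196 on plates 2, 4, 6 and 8 alone, and to between 385 and 441 with each plate left out. With the plate as a block it was 515, *Gas1* was at 5.26 and *Cdon* at 3.31, so that the pairing changed the call of neither gene. Between lineages, 853 genes were called, 529 to 850 with each plate left out (529 without *Lepr*-lineage plate 2). Plates 1 and 2 of the lineages share only a number (r 0.0571), and on these plates 489 genes were called with the number as a block and 451 without it. Against articular-like cells, 601 genes were called and 393 to 604 with each plate left out. *Boc* passed between lineages without the filter (-1.80) and ranged from -6.91 to -0.68 with plates left out, and from -6.83 to -1.64 against articular-like cells. The value of -6.91 came from the fit without *Lepr*-lineage plate 1, in which no *Boc* UMI of that lineage remained. *Gli3* ranged from -3.12 to 0.13 between lineages, from -3.23 to -0.10 against articular-like cells and from -2.67 to 0.60 against *Cnmd*-rich cells, positive only without *Lepr*-lineage plate 1. Without thinning, the shares in articular-like cells were 76.8% (*Gas1*), 17.4% (*Boc*), 28.7% (*Cdon*), 0.725% (*Gli1*), 8.21% (*Gli2*) and 9.42% (*Gli3*), and in *Cnmd*-rich cells 20%, 6.30%, 8.15%, 7.04%, 7.78% and 15.2%. Without the gene minimum, *Gli2* was in 0.362% of thinned *Cnmd*-rich cells. Few UMIs limit *Gli1* and the *Lepr*-lineage values. The cause of these changes was not tested, except that thinning and left-out plates use fewer UMIs or sums by construction.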
